A study of Mus musculus with 11 samples.

Results

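Collagen chain genes were taken as the protein-coding genes of the deposited table whose symbol starts with Col, a number, the letter a and a number. The pattern matched 45 of the 55385 genes. One match, Col4a3bp, encodes a ceramide transfer protein and no collagen chain, which left 44 chain genes: 11 fibrillar, 6 of basement membrane (type IV) and 27 other. Of the 44 chains, 42 passed the filter on low counts and were tested. Col6a4, with at most 0.0967 CPM in any library, and Col10a1, with at most 0.0644 CPM, were not. CPM, counts per M counts of a library, is given after TMM scaling of the library totals.

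RNA was sequenced from whole mouse gastrocnemius, the main calf muscle, taken 36 h into a fast that all 4 groups underwent. The controls were ZEB1 flx/flx mice (2 libraries, numbered 2 and 3) and ZEB2 flx/flx mice (3 libraries), and the knockouts were ZEB1 flx/flx; HSACre and ZEB2 flx/flx; HSACre mice (3 libraries each). HSACre is a Cre recombinase under the skeletal actin promoter, active in myofibres, and the labels give no age, sex or strain. Each library pooled 2 mice of 1 genotype, so the spread measured is that between pools. The controls are not labelled as carrying Cre, so loss of the ZEB gene and presence of Cre cannot be told apart, and without a fed group nothing here measures the effect of fasting.

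Collagens are triple helices of 3 chains. The fibrillar types I, III and V form the load-bearing fibres of the muscle's connective tissue and of tendon, type IV forms the network of the basement membrane that wraps each myofibre and capillary, and type VI forms beaded filaments that lie between fibres and basement membrane. In skeletal muscle most fibrillar collagen transcripts come from fibroblasts rather than from myofibres. The transcription factors ZEB1 and ZEB2 are repressors with zinc fingers that bind E-box motifs of the form CACCTG.

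Total counts ran from 27.3 to 46.3 M per library. Zeb1 measured 41.2 and 51.1 CPM in the ZEB1 controls against 28.4, 28.6 and 30.4 CPM in the ZEB1 knockouts, for a log2 fold change of -0.67 with a standard error (SE) of 0.15 (edgeR adjusted p = 0.80). Zeb2 measured 24.1, 23.1 and 25.8 CPM in the ZEB2 controls against 18.3, 14.5 and 17.6 CPM in the ZEB2 knockouts, for a log2 fold change of -0.53 ± 0.13 (SE, edgeR adjusted p = 0.0775). Neither targeted gene overlapped between knockout and control libraries, and neither passed the threshold of 0.05. Whole muscle also holds cells without active HSACre, and exons that Cre leaves in place still add to the counts of a gene. The part of either in the remaining Zeb1 and Zeb2 counts was not tested, and neither was how complete the deletion was. Of the markers of non-muscle tissue that could be carried in a dissection, the 4 of skin epithelium summed to 0.736 to 1.45 CPM, with Krt1 and Krt14 at 0 in every library, and the 4 of cartilage and bone to 0.717 to 1.68 CPM. The 9 tendon markers were higher, from 45.1 CPM in ZEB1 knockout 1 to 189 CPM in ZEB2 control 3. How much tendon was left on the muscles was not tested. The myofibre markers summed to between 69651 and 90031 CPM.

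Several chain genes lie side by side in the genome (GRCm38, GENCODE M21). Col4a1 (chr8:11198423-11312826, minus strand) and Col4a2 (chr8:11312805-11449287, plus strand) are head to head and overlap by 22 bases. Col4a4 and Col4a3 on chromosome 1 are head to head with 71 bases between them, and Col4a6 and Col4a5 on chromosome X with 1308 bases. Col3a1 (chr1:45311538-45349706, plus strand) and Col5a2 (chr1:45374321-45503282, minus strand) are tail to tail, 24614 bases apart. Since the strand setting of the counting is not stated, reads in the overlap of Col4a1 and Col4a2 cannot be told apart.

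Promoter sequence was read from RefSeq (GRCm38.p6) for 35 of the 44 chain genes, in 38 windows from 250 bases before to 50 after a start. CACCTG or its reverse complement CAGGTG occurred in 5 of 38 chain windows (13.2%), against 20.2% of all 32851 promoter windows. CCAAT (or ATTGG) occurred in 13 chain windows (34.2%, against 37.4% of all), and TATAAA (or TTTATA) in 5 (13.2%, against 13.6%). The 3 upstream sequences printed here, one for each motif, belong to a chain with the smallest p of the ZEB2 contrast (Col8a1), to one of the most abundant fibrillar chains (Col3a1) and to a fibrillar type V chain (Col5a3). Each holds the 250 bases before the start, 5′ to 3′ on the gene's strand, with the motif in capitals: CACCTG from base -18 in Col8a1 (chr16:57754738-57754987, minus strand), TATAAA from base -117 in Col3a1 (chr1:45311288-45311537, plus strand) and CCAAT from base -122 in Col5a3 (chr9:20815068-20815317, minus strand).
Col8a1: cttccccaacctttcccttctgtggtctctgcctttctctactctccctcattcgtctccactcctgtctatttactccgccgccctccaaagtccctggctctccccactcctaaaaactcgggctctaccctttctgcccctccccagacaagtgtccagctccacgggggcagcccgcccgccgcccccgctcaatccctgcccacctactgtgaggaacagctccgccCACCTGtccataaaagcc
Col3a1: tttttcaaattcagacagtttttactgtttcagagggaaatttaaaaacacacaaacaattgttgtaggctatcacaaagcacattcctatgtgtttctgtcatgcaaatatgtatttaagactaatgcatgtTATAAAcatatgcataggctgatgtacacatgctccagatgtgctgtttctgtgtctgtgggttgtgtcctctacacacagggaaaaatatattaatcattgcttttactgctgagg
Col5a3: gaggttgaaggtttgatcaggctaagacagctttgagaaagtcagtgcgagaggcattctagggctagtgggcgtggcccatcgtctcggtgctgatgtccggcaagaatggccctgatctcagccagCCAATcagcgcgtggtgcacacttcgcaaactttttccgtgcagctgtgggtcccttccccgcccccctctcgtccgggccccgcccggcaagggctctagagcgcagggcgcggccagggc
These matches are letters in a window and were not measured as binding. The 5 chain genes with CACCTG on either strand were Col8a1, Col16a1, Col6a5, Col9a2 and Col4a4.

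The type IV pair was the most abundant. Per kilobase of annotated exon (the union of all exons of a gene), Col4a1 averaged 24.0 CPM per kb over the 11 libraries and Col4a2 17.6. Col3a1 followed at 11.6, Col6a1 at 9.32, Col1a1 at 8.51 and Col1a2 at 8.01 CPM per kb. The order is not sharp, because every chain overlapped in range with its neighbour in the order, for all 43 neighbouring pairs. It also depends on the length used: per kilobase of the longest transcript, Col3a1 came to 20.5 and Col1a2 to 18.6, both above Col4a2 at 18.1, while Col4a1 stayed first at 27.1. Before division by length, 14 chains averaged at least 10 CPM and 32 at least 1 CPM. Of the chains typical of cartilage, Col2a1 lay between 0.0644 and 0.754 CPM, Col9a1 between 0.197 and 2.29, Col9a2 between 0.162 and 0.619, Col9a3 between 0.0282 and 0.419, Col11a1 between 0.232 and 3.55 and Col11a2 between 1.60 and 9.74 CPM, beside the untested Col10a1.

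**Figure D1:**
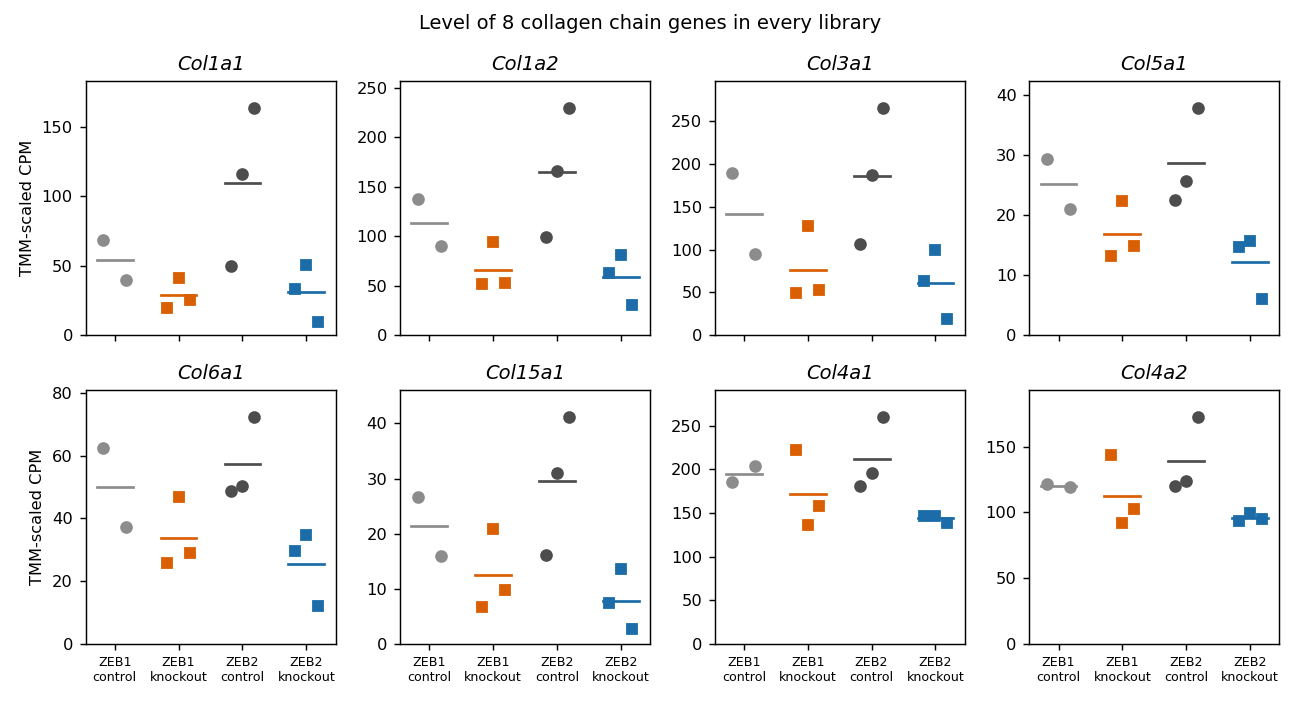
TMM-scaled CPM (y axes, linear, from 0) of 8 collagen chain genes in each of the 11 libraries, by group on the x axes, with circles for controls, squares for knockouts and a line at each group mean. The ZEB2 knockouts lie below the ZEB2 controls for every chain shown except Col1a1, where they overlap, and Col4a1 and Col4a2 have the narrowest spread.

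Most fibrillar chains spread more between libraries than most type IV chains. The ratio of the highest to the lowest library had a median of 6.32 over the 11 fibrillar chains (2.10 for Col27a1 to 17.0) and of 1.90 over the 6 type IV chains (1.30 to 4.38 for Col4a6), so the classes overlapped. Col1a1, the first chain of type I collagen, ranged 17.0-fold from its lowest to its highest library and Col3a1, the single chain of type III, 14.2-fold, against 1.92-fold for Col4a1 and 1.87-fold for Col4a2. The minor type IV chain Col4a3 ranged 1.30-fold. Within groups the median SD of log2 levels was 0.58 over the 11 fibrillar chains, 0.24 over the 6 type IV chains and 0.48 over the 25 other tested chains, beside 0.29 over all genes tested. The libraries at both ends were often the same: 25 of the 42 tested chains were lowest in ZEB2 knockout 3 and 25 were highest in ZEB2 control 3. The share of all genes lowest or highest in these libraries was not counted, so this is not shown to be particular to collagens. Those 2 libraries were also the lowest and the highest of all 11 in the sum of chain counts, at 0.0367% and 0.165% of all counts.

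In the ZEB2 contrast, most chains were lower in the knockouts, and no single one passed the test. Of the 42 tested chains, 39 had a log2 fold change below 0, where 53.4% of all genes tested did, and 21 were at or below -1. The share of all genes at or below -1 was not counted, in this or the ZEB1 contrast. The medians were -1.31 for the fibrillar chains (11 of 11 lower), -1.03 for the other chains (24 of 25 lower) and -0.51 for the type IV chains (4 of 6 lower), beside -0.05 for all genes tested. The edgeR quasi-likelihood test called 0 of 15416 genes at an adjusted p of 0.05 (0% of genes tested). The smallest adjusted p of any gene was 0.0775. It was reached by 7 chains, tied with genes of other lists, so it does not rank the chains above other genes. At an unadjusted 0.05, 29 chains were lower (11 fibrillar, 2 type IV and 16 other) and 0 higher, against a background of 17.3% of genes lower and 15.9% higher. In 28 chains every knockout library lay below every control library, against a background of 22.1%. DESeq2 called 19 chains lower (7 fibrillar, 0 type IV, 12 other) of the 35 for which it gave an adjusted p, against a background of 8.91%, while limma-voom called 0 (0% of genes tested). edgeR itself called 9 of 39 chains, all lower, when fitted on the ZEB2 libraries alone, where it called 14.2% of all genes tested, and 6 of 44, all lower, without the filter on low counts, where it called 1.29%.

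The type I chains, which assemble as a pair of the first with one of the second, had among the larger differences. Col1a1 measured 49.4, 116 and 163 CPM in the ZEB2 controls against 33.0, 50.2 and 9.60 CPM in the knockouts. Knockout 2 was just above control 1, so the groups overlapped, and knockout 3 was the lowest of all 11 libraries. The log2 fold change was -1.82 ± 0.59 (SE, edgeR adjusted p = 0.0920), a level of 0.283 of control with an interval of 2 SE each side from 0.124 to 0.645. Col1a2, the second chain, measured 99.2, 166 and 229 CPM in controls against 63.1, 81.1 and 30.7 CPM in knockouts, with no overlap and a log2 fold change of -1.499 ± 0.41 (SE, edgeR adjusted p = 0.0793).

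Col3a1 measured 106, 187 and 265 CPM in the ZEB2 controls against 63.7, 100 and 18.7 CPM in the knockouts. The groups were close but apart, since knockout 2 lay just under control 1, and the log2 fold change was -1.61 ± 0.61 (SE, edgeR adjusted p = 0.112). The type V chains, which set the width of type I fibrils, showed the same order of groups. Col5a1 measured 22.5, 25.7 and 37.7 CPM in controls against 14.7, 15.6 and 5.97 CPM in knockouts. Col5a2 measured 30.2, 32.1 and 39.9 CPM against 21.3, 20.8 and 13.1 CPM, a log2 fold change of -0.89 ± 0.22 (SE, edgeR adjusted p = 0.0775). It was among the 7 chains at the tied smallest adjusted p. Col5a3 differed by -0.998 ± 0.35 on the log2 scale and its groups did not overlap. The remaining fibrillar chains, Col11a1, Col11a2, Col2a1, Col24a1 and Col27a1, had log2 fold changes from -1.81 (Col11a1) to -0.60 (Col27a1). All averaged under 10 CPM.

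The type IV chains did not behave as 1 block. Col4a1 measured 181, 196 and 260 CPM in the ZEB2 controls against 147, 147 and 138 CPM in the knockouts, and Col4a2 measured 120, 124 and 173 CPM against 93.3, 99.7 and 94.9 CPM. Neither overlapped, and the knockouts lay within a narrow band. The log2 fold changes were -0.56 ± 0.19 for Col4a1 (SE, edgeR adjusted p = 0.0952) and -0.53 ± 0.19 for Col4a2 (adjusted p = 0.0984). The chains of the second type IV pair, Col4a3 and Col4a4, which are better known from kidney glomeruli, stood at 0.04 ± 0.20 and 0.07 ± 0.20 (SE), intervals of -0.36 to 0.44 and -0.33 to 0.48. Both signs turned negative when libraries were scaled by their totals alone. The X-linked chains Col4a5 and Col4a6 stood at -0.49 ± 0.27 and -0.80 ± 0.43 (SE). The intervals of both reached past 0.

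**Figure D2:**
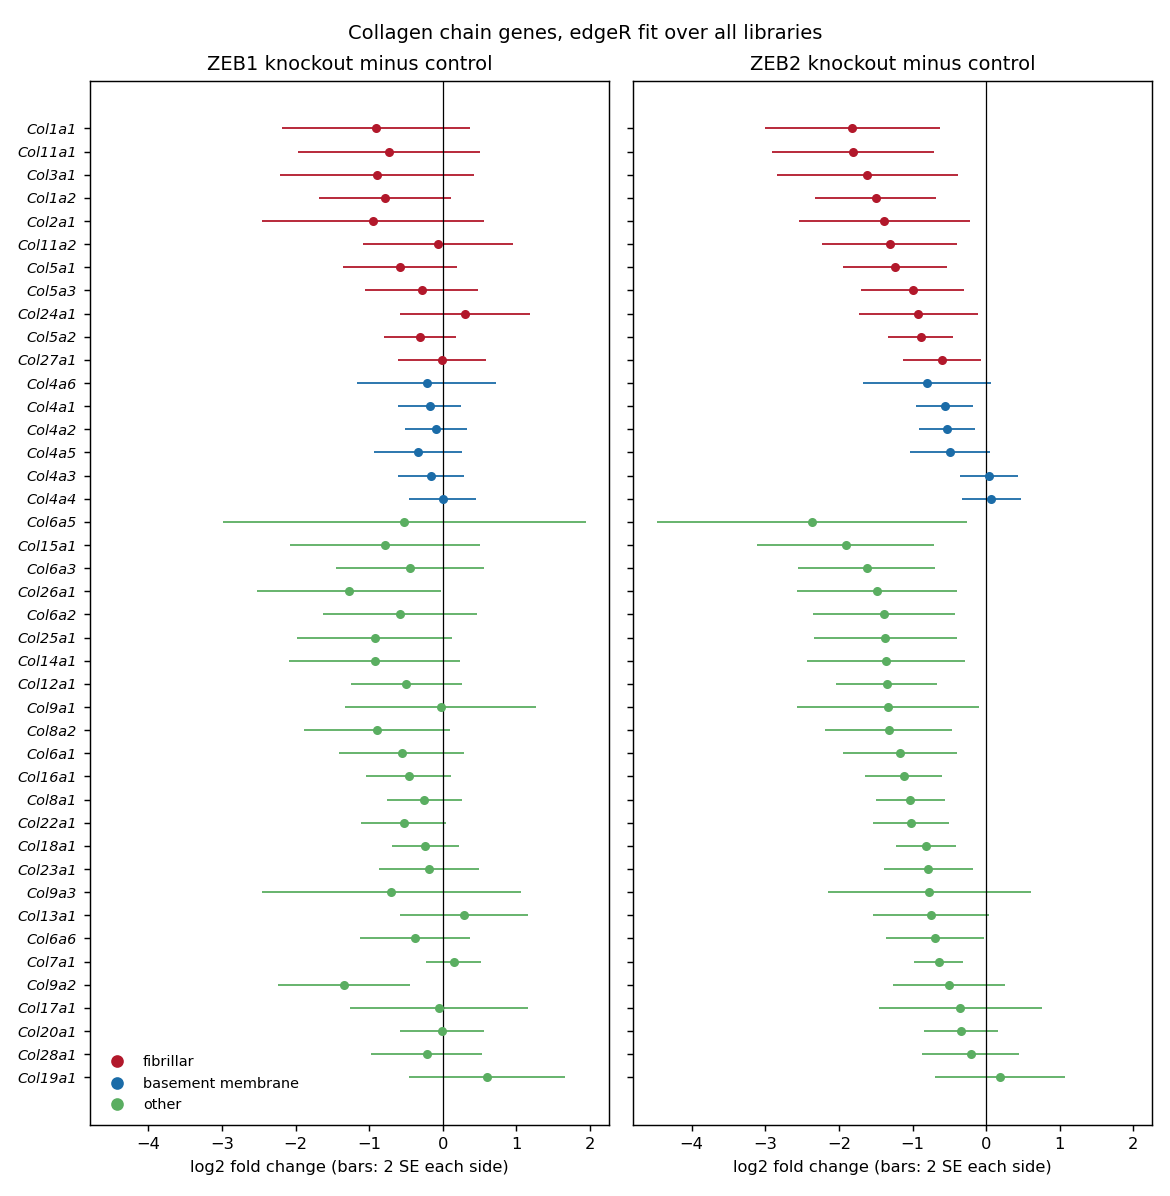
Log2 fold change of knockout against control (x axes, bars of 2 SE each side) for the 42 tested collagen chains (rows), in the ZEB1 line on the left and the ZEB2 line on the right, coloured by class and ordered within a class by the ZEB2 value. In the ZEB2 line 39 of 42 points lie left of 0, and in the ZEB1 line 37 do.

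Among the other chains, the type VI chains, the beaded-filament collagen whose loss causes muscular dystrophies, were lower in the ZEB2 knockouts. Col6a1 measured 48.8, 50.3 and 72.3 CPM in controls against 29.7, 34.8 and 11.9 CPM in knockouts, for a log2 fold change of -1.17 ± 0.39 (SE, edgeR adjusted p = 0.0933). Col6a2 and Col6a3 stood at -1.39 ± 0.48 and -1.62 ± 0.46 (SE). These 3 chains form the common type VI molecule, and none overlapped between the groups. The chains that can take the place of Col6a3 were low: Col6a6 measured 3.58 to 4.64 CPM in controls against 1.89 to 3.08 CPM in knockouts, and Col6a5 was at most 0.565 CPM.

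Col8a1, a short-chain network collagen of vessel walls, had the smallest p of the chains in this contrast. It measured 6.96, 6.77 and 8.67 CPM in controls against 4.33, 3.50 and 3.15 CPM in knockouts, for a log2 fold change of -1.03 ± 0.23 (SE, edgeR adjusted p = 0.0775). Its groups were well apart, a level of 0.490 of control. Col15a1, a multiplexin of the basement membrane zone, had the largest log2 fold change of the chains above 10 CPM, with 16.2, 31.1 and 41.2 CPM in controls against 7.35, 13.5 and 2.67 CPM in knockouts and a value of -1.91 ± 0.60 (SE). The other multiplexin, Col18a1, whose fragment is endostatin, stood at -0.81 ± 0.21 (SE, edgeR adjusted p = 0.0775). Of the fibril-associated collagens, Col12a1 stood at -1.35 ± 0.34, Col16a1 at -1.12 ± 0.26, Col22a1, a chain of the muscle-tendon junction, at -1.02 ± 0.26 and Col14a1 at -1.36 ± 0.54 (SE). Col7a1, the anchoring fibril collagen, measured 16.7, 17.0 and 15.1 CPM in controls against 10.8, 9.64 and 10.9 CPM in knockouts, with little spread within either group. Col19a1 was the one other chain above 0, at 0.19 ± 0.44 (SE).

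With each of the 6 libraries left out in turn, between 36 and 40 chains were below 0, of 39 to 42 tested. The fibrillar median was -0.99 without ZEB2 control 3 and -1.06 without ZEB2 knockout 3. The smallest adjusted p of a chain was then 0.302 and 0.250.

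Other values moved with the ZEB2 groups. The 9 tendon markers (among them Tnmd, Scx and Fmod) summed to 91.1 to 189 CPM in the ZEB2 controls against 57.7 to 75.0 CPM in the knockouts, with 9 of 9 lower. The 10 fibroblast markers, led by Gsn and Dcn, summed to 1590 to 1964 CPM in controls against 1675 to 1821 CPM in knockouts, which overlapped, although 9 of 10 had a log2 fold change below 0. Taken singly, 5 of 10 fibroblast and 2 of 9 tendon markers were lower in every knockout library than in every control library. The background was 22.1% of genes tested. The 7 smooth muscle and pericyte markers summed to 744 to 812 CPM against 599 to 618 CPM, with 7 of 7 lower, and the 6 endothelial markers to 403 to 488 CPM against 367 to 438 CPM. The 5 macrophage markers summed to 32.6 to 42.2 CPM in controls against 27.3 to 31.1 CPM in knockouts, without overlap and with 4 of 5 lower. The 5 Schwann cell markers had 5 of 5 lower (135 to 285 CPM against 90.5 to 156 CPM) and the 4 adipocyte markers 4 of 4 lower (287 to 424 CPM against 179 to 321 CPM), while their sums overlapped, as did those of the 3 erythroid markers (925 to 1140 CPM against 763 to 947 CPM, 3 of 3 lower). The 7 myofibre markers went the other way in sum, at 75661 to 79835 CPM in controls against 83091 to 90031 CPM in knockouts. These sums did not overlap, although 3 of the 7 had a log2 fold change below 0. No marker in these 9 lists was at 0 throughout. Mitochondrial genes held 16.0%, 17.0% and 18.01% of counts in the controls against 14.9%, 14.7% and 12.1% in the knockouts. ZEB2 control 3 was the highest and ZEB2 knockout 3 the lowest of all 11 libraries in this share, as in the sum of chain counts. Transcripts of 4 Y-linked genes summed to 118, 250 and 0 CPM in the controls against 216, 256 and 378 CPM in the knockouts, so the sexes of the pooled mice differed between libraries. Control 3 was the only ZEB2 library without them, so sex was partly tied to genotype in this contrast. With the log2 level of the Y-linked sum as a covariate the fibrillar median was -0.99, the other median -0.89 and the type IV median -0.37. Within the ZEB2 line this covariate mainly sets control 3 apart. The smallest edgeR adjusted p of a chain was then 0.158, against 0.0775 without the covariate. The part of the marker levels and of the mitochondrial share in the chain results was not tested, and in whole muscle fewer cells of a type and less RNA per cell cannot be told apart.

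**Figure D3:**
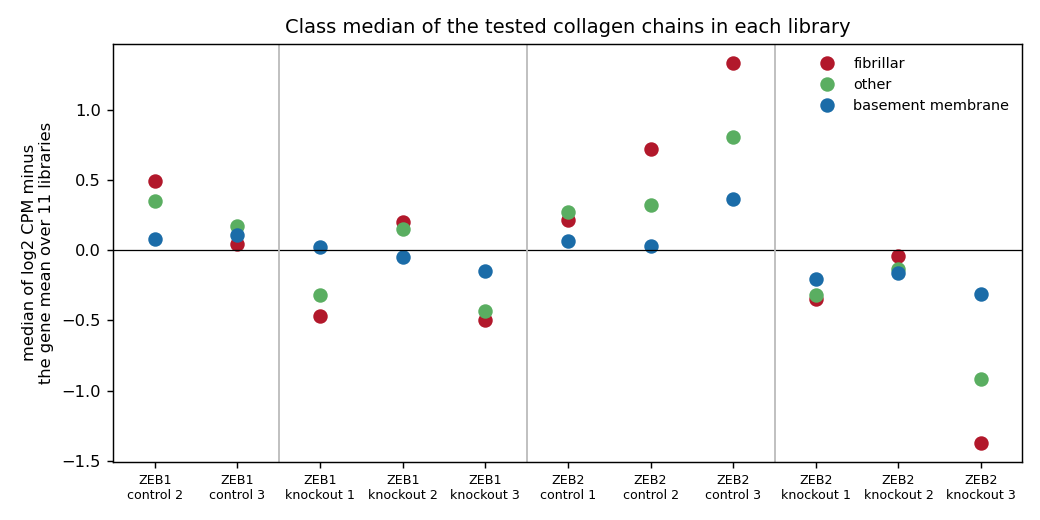
Median over the tested chains of each class of log2 CPM minus the gene's mean over the 11 libraries (y axis), in each library (x axis, groups parted by vertical lines). ZEB2 control 3 and ZEB2 knockout 3 stand at 1.34 and -1.37 for the fibrillar chains, and the type IV medians stay between -0.31 and 0.37.

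In the ZEB1 contrast, most chains again lay lower in the knockouts, and none passed the test. Of the 42 tested chains, 37 had a log2 fold change below 0, against 48.7% of all genes, and only Col9a2 and Col26a1 were at or below -1. The medians were -0.58 for fibrillar chains (10 of 11 lower), -0.17 for type IV chains (5 of 6) and -0.46 for other chains (22 of 25), beside 0.01 for all genes tested. edgeR called 0 genes (0% of genes tested), with a smallest adjusted p of 0.105 over all genes and 1.00 over the chains, and at an unadjusted 0.05 it found 1 chain lower and 0 higher, against a background of 1.6% of genes lower and 1.64% higher. DESeq2 called 0 chains and 21 genes (0.136%), and limma-voom 0 chains and 1 gene (0.00649%). In 9 chains every knockout library lay below every control library, against a background of 6.69%: Col4a3, Col8a2, Col9a2, Col11a1, Col16a1, Col18a1, Col22a1, Col25a1 and Col26a1. The ZEB1 control group had 2 libraries that differed between themselves, and without ZEB1 control 2 the fibrillar median was -0.32 and 31 of 42 chains were below 0.

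Col1a1 measured 68.2 and 39.5 CPM in the ZEB1 controls against 19.8, 40.8 and 25.3 CPM in the knockouts. Knockout 2 lay just above control 3, and the log2 fold change was -0.91 ± 0.64 (SE, edgeR adjusted p = 1.00). Col1a2 measured 137 and 89.9 CPM against 51.3, 94.0 and 52.7 CPM, and Col3a1 measured 189 and 95.1 CPM against 49.7, 127 and 52.6 CPM. In these 3 chains knockout 2 lay within the range of the controls, while knockouts 1 and 3 lay below it. Col9a2, a fibril-associated chain best known from cartilage, measured 0.559 and 0.560 CPM in controls against 0.162, 0.290 and 0.203 CPM in knockouts, for a log2 fold change of -1.34 ± 0.45 (SE, edgeR adjusted p = 1.00), at counts near the detection filter. Col4a1 and Col4a2 stood at -0.18 ± 0.21 and -0.09 ± 0.21 (SE), with intervals of -0.60 to 0.25 and -0.51 to 0.33, and their groups overlapped. Col24a1, Col7a1, Col13a1 and Col19a1 had values above 0, from 0.15 to 0.60, and Col4a4 stood at 0.00.

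Markers moved in this line as well. The tendon markers summed to 102 to 114 CPM in the ZEB1 controls against 45.1 to 58.1 CPM in the knockouts (9 of 9 lower), and the fibroblast markers to 2466 to 2524 CPM against 1595 to 2154 CPM (10 of 10 lower), with no overlap in either sum. Taken singly, 6 of 9 tendon and 3 of 10 fibroblast markers were lower without overlap, against 6.69% of genes tested. The smooth muscle and pericyte markers overlapped, at 677 to 736 CPM against 669 to 790 CPM. So did the sums of the endothelial (417 to 462 CPM against 350 to 451 CPM, 5 of 6 lower), myofibre (69797 to 83134 CPM against 69651 to 88113 CPM, 3 of 7 lower), macrophage (46.4 to 54.3 CPM against 32.4 to 52.1 CPM, 4 of 5 lower), Schwann cell (126 to 231 CPM against 46.1 to 177 CPM, 5 of 5 lower), erythroid (709 to 837 CPM against 453 to 808 CPM, 3 of 3 lower) and adipocyte markers (199 to 339 CPM against 239 to 320 CPM, 2 of 4 lower). Mitochondrial genes held 14.1% to 15.2% of counts in the controls and 13.2% to 15.2% in the knockouts. The part of these in the chain values was not tested. Y-linked transcripts summed to 0 and 163 CPM in the controls against 0, 0 and 210 CPM in the knockouts. With the Y-linked covariate, 37 of 42 chains were below 0 and 0 were called by edgeR.

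The 2 knockout effects were compared directly as the ZEB1 log2 fold change minus the ZEB2 one. This difference was above 0 in 38 of 42 tested chains, against 54.6% of all genes, with medians of 0.71 for fibrillar, 0.27 for type IV and 0.57 for other chains, beside 0.06 for all genes. edgeR called 0 genes (0% of genes tested), and the smallest adjusted p of a chain was 0.516. Of the 42 chains, 2 passed an unadjusted 0.05 above 0, close to the background of 5.09% of genes. They were Col7a1, at 0.79 ± 0.25 (SE), and Col8a1, at 0.78 ± 0.35 (SE). For Col7a1 the control groups, which enter the difference, were themselves apart, at 10.1 and 11.8 CPM in the ZEB1 line against 15.1 to 17.0 CPM in the ZEB2 line. DESeq2 called 0 chains and 17 genes (0.113%), and limma-voom 0 genes (0%). For Col1a1 the difference was 0.91 with an interval of -0.84 to 2.66, and for Col4a1 0.39 with an interval of -0.19 to 0.97. The larger values in the ZEB2 line were therefore not separated from those in the ZEB1 line by this test.

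The control groups of the lines were compared as well. In ZEB2 control against ZEB1 control, 32 of 42 chains were above 0, against 52.4% of all genes, with medians of 0.39 for fibrillar, -0.11 for type IV and 0.36 for other chains. edgeR called 3 genes (0.0195% of genes tested) and 0 chains, with 1 chain, Col7a1, higher at an unadjusted 0.05 (background 1.57%). DESeq2 called 0 chains and 16 genes (0.104%), and limma-voom 0 chains and 2 genes (0.013%). Without ZEB2 control 3 the fibrillar median was 0.18. Every ZEB2 control library lay above both ZEB1 controls in 5 chains (Col6a6, Col7a1, Col11a1, Col19a1 and Col27a1), against a background of 8.96%. The fibroblast markers summed lower in the ZEB2 than in the ZEB1 controls (9 of 10 lower), and the macrophage markers too (4 of 5), while the erythroid (3 of 3) and smooth muscle and pericyte markers (6 of 7) summed higher, each with no overlap. Of the tendon markers 8 of 9 were higher (median 0.76 on the log2 scale), though their sums overlapped. The mitochondrial share was higher in every ZEB2 control than in both ZEB1 controls, and the part of these values in the chain levels was not tested. Y-linked sums overlapped between the control groups, at 0 and 163 CPM in the ZEB1 controls against 118, 250 and 0 CPM in the ZEB2 controls. The ZEB2 control libraries enter this comparison and the ZEB2 knockout contrast, so a high level in them enters both. Col4a3bp, the non-collagen match, ran from 53.4 to 64.7 CPM over all libraries.

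Chains that assemble into the same molecule, and Col3a1 with Col1a1 as chains of 2 fibrillar types, were compared as ratios within a library. The log2 ratio of Col4a2 to Col4a1 per kilobase of exon averaged -0.45 ± 0.07 (SD, n = 11), while over the libraries Col4a2 alone had an SD of 0.28 and Col4a1 of 0.31. The ratio of Col1a2 to Col1a1 averaged 0.09 ± 0.36 (SD, n = 11), beside SDs of 0.83 for Col1a2 and 1.14 for Col1a1 alone. Its extremes were ZEB2 control 3 at -0.43 and ZEB2 knockout 3 at 0.76, the libraries with the most and the least Col1a1. The ratio of Col3a1 to Col1a1 averaged 0.53 ± 0.30 (SD, n = 11), with 0.89 and 0.69 in the ZEB1 controls and 0.52, 0.11 and 0.12 in the ZEB2 controls, so the control groups did not overlap. Ratios of Col5a2 to Col5a1, Col6a2 to Col6a1 and Col6a3 to Col6a1 averaged 0.28 ± 0.30, -1.44 ± 0.22 and -2.07 ± 0.27 (SD, n = 11). The mean of a ratio depends on the lengths: by the longest transcript, Col1a2 to Col1a1 came to 1.16, a ratio of 2.24 to 1, and Col6a2 to Col6a1 to -0.78. The spread between libraries does not depend on them.

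**Figure D4:**
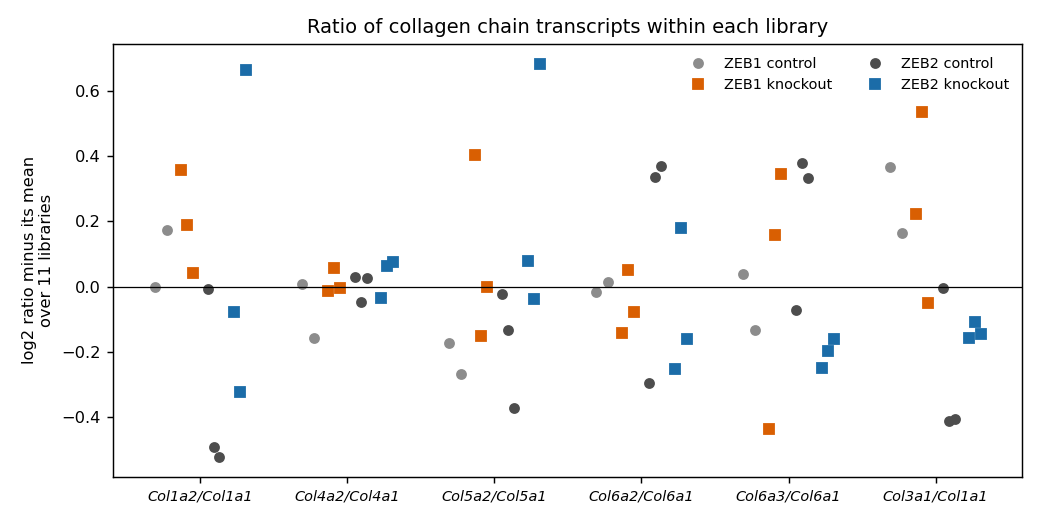
Log2 ratio of 2 collagen chains within each library, minus the mean of that ratio over the 11 libraries (y axis), for 6 chain pairs (x axis), with circles for controls and squares for knockouts. The Col4a2 to Col4a1 ratio has the narrowest spread (SD 0.07), and ZEB2 knockout 3 is the highest point for Col1a2 to Col1a1 and for Col5a2 to Col5a1.

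Genes that make collagen were described from a list of 36 chaperones, hydroxylases, processing proteases and cross-linking enzymes, of which 34 were tested. In the ZEB2 contrast 26 of 34 had a log2 fold change below 0, with a median of -0.35, and edgeR called 0. At an unadjusted 0.05, 15 were lower and 1 higher (17.3% and 15.9% of all genes). DESeq2 called 7 lower and 1 higher (8.91% and 10.5% of the genes for which it gave an adjusted p). P3h2, a prolyl 3-hydroxylase, measured 4.86, 5.06 and 5.98 CPM in controls against 1.97, 2.60 and 1.72 CPM in knockouts, for a log2 fold change of -1.33 ± 0.26 (SE, edgeR adjusted p = 0.0775). Sparc, a collagen-binding matricellular protein, measured 244, 303 and 389 CPM against 191, 195 and 141 CPM, and Loxl2, a lysyl oxidase that cross-links collagen, stood at -1.09 ± 0.26 (SE). These 3 were picked by their small p, and none overlapped between groups. Of the 34 genes, 15 were lower without overlap, against 22.1% of all genes tested. Adamts2, a procollagen N-proteinase, went the other way, with 12.9, 25.8 and 20.3 CPM in controls against 13.0, 38.5 and 88.5 CPM in knockouts, and had the smallest p of the list for the difference of effects, at -2.01 ± 0.91 (SE, edgeR adjusted p = 0.516). In the ZEB1 contrast 24 of 34 were below 0 with a median of -0.14, edgeR and DESeq2 called 0 (0 at an unadjusted 0.05), and the genes of smallest p were P3h2 at -0.62 ± 0.28, Adamts14, of the same protease family as Adamts2, at -0.59 ± 0.29, and P4hb, a subunit of prolyl 4-hydroxylase, at 0.25 ± 0.13 (SE).

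Of 10 tested collagen receptors and related surface proteins, 8 were below 0 in the ZEB2 contrast and 9 in the ZEB1 contrast, and edgeR called 0 in each. At an unadjusted 0.05, 5 were lower and 1 higher in the ZEB2 line (17.3% and 15.9% of all genes). DESeq2 called 3 lower there (8.91% of the genes for which it gave an adjusted p). In the ZEB1 line 3 were lower (1.6% of all genes), and DESeq2 called 0. In the ZEB2 line, Itga1, the alpha 1 integrin, measured 45.99, 34.8 and 41.8 CPM in controls against 27.8, 24.6 and 23.6 CPM in knockouts, for a log2 fold change of -0.69 ± 0.17 (SE, edgeR adjusted p = 0.0775). Ddr2, a receptor tyrosine kinase for fibrillar collagen, stood at -0.87 ± 0.22 and Itga11, an integrin chain of fibroblasts, at -0.97 ± 0.30 (SE). These 3 were picked by their small p, and all were apart between groups. Of the 10 genes, 6 were lower without overlap, against 22.1% of all genes tested. In the ZEB1 line, Itga11, the alpha 2 integrin Itga2 and Lair1, an inhibitory collagen receptor of leukocytes, had the smallest p, at -0.84 ± 0.33, -1.25 ± 0.49 and -1.04 ± 0.43 (SE).

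Of 11 tested genes of collagen breakdown, a list that also holds the inhibitor Timp4, 9 were below 0 in the ZEB2 contrast and 8 in the ZEB1 contrast. edgeR again called 0. At an unadjusted 0.05, 6 were lower in the ZEB2 line (17.3% of all genes). DESeq2 called 3 lower there (8.91% of the genes for which it gave an adjusted p). In the ZEB1 line 3 were lower and 1, the inhibitor Timp4, was higher (1.6% and 1.64% of all genes), and DESeq2 called 0. Mmp15, a membrane-bound matrix metalloproteinase, measured 11.7, 17.8 and 24.2 CPM in the ZEB2 controls against 8.66, 9.55 and 3.66 CPM in the knockouts. Mmp9, a gelatinase, stood at -1.31 ± 0.39 and Mrc2, an endocytic collagen receptor, at -0.99 ± 0.35 (SE). These 3 were picked by their small p. Of the 11 genes, 5 were lower without overlap in this line, against 22.1% of all genes tested. In the ZEB1 line, Timp4, a metalloproteinase inhibitor, measured 26.9 and 30.6 CPM in controls against 59.4, 32.6 and 65.8 CPM in knockouts. It was higher in 3 of 3 knockout libraries, at 0.87 ± 0.27 (SE, edgeR adjusted p = 1.00), while Mmp2, a gelatinase, and Ctsk, a collagen-degrading cathepsin, stood at -0.72 ± 0.27 and -0.77 ± 0.30 (SE). Timp4, Mmp2 and Ctsk were likewise picked by their small p. In the ZEB1 line 4 of the 11 genes were lower and 1 higher without overlap, against 6.69% and 7.19% of all genes tested.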

How the data were processed

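Poly(A) RNA of whole gastrocnemius was sequenced in 11 libraries, each a pool of 2 mice. The tools named, per the submitters' processing notes, include DESeq2, RSEM and STAR, with no role, version or setting. GRCm38 is the build named there. The authors deposited estimated counts per gene, as whole numbers that are not normalized; this unit rests on the values and on RSEM, an estimator that divides reads between overlapping or similar genes. Annotation and strand setting of the counting: not given in the sources used here.

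Here, edgeR 4.0.16 (R 4.3.3) was run on genes passing filterByExpr (minimum count 10, minimum total 15; 15416 genes with 99.96% of counts), with TMM scaling and a robust quasi-likelihood fit of 4 group means to all 11 libraries. P-values were adjusted by Benjamini-Hochberg over all genes tested, at a threshold of 0.05. Each SE was the log2 fold change without its sign over the root of F. Biological variation between pools was 0.240 as a coefficient. The code was tested on simulated data. Totals ran from 27.3 to 46.3 M counts, and each group held 2 or 3 pools. Lengths and coordinates were from GENCODE M21, which held 42 of the 45 identifiers with their version and 45 without it. Class medians, ratios and marker sums have no test. Alternatives were DESeq2 1.42.0, limma-voom (limma 3.58.1), other scalings, filters and sample sets, a Y-linked covariate, a replicate block and leaving out each library.

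The named chains were set by role, with the 5 of smallest p in each contrast, up to 3 genes of each related list and Zeb1 and Zeb2; Col9a3 was added after its values were seen. The members and lists were chosen with earlier results of these data known, so no p is given for a list. Protein sequences were not used here.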

Additional observations from a re-analysis of the deposited data

How the results depend on the processing

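No collagen chain was called by edgeR in the knockout contrasts, the difference of effects or the control comparison, and limma-voom and every set of libraries with one left out also called 0 chains. In the ZEB2 contrast DESeq2 called 19 chains and 2587 genes, edgeR without the filter on low counts 6 chains and 348 genes, and edgeR on only the 2 groups compared 9 chains and 2077 genes; the cause was not tested. The number of all genes called in the ZEB1 contrast was 21 by DESeq2, 1 by limma-voom, 6 without the filter, and 0 to 5 with one library left out. For the difference of effects it was 17 by DESeq2, 2 without the filter, and 0 to 3 with one library left out. For the control comparison it was 16 by DESeq2, 5 with RLE scaling, 7 without the filter, 1 with the replicate block, and 1 to 4 with one library left out. Fitting only the groups compared was not run for the difference, which needs all 4 groups.

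Fibrillar medians kept their sign in every setting, from -1.64 to -0.99 in the ZEB2 contrast and from -0.74 to -0.32 in the ZEB1 contrast with one library left out. The type IV median of the ZEB2 contrast was -0.64 by library totals, -0.37 with the Y-linked covariate, and -0.60 to -0.37 with one library left out. Scaling by library totals moved the median of all genes in that contrast from -0.05 to -0.17. The type IV median of the difference was 0.11 over genes of at least 1 CPM, 0.11 with the Y-linked covariate, and 0.11 to 0.37 with one library left out. By the longest transcript the log2 ratios were 1.16 for Col1a2 to Col1a1, -0.58 for Col4a2 to Col4a1, 0.80 for Col5a2 to Col5a1, -0.78 for Col6a2 to Col6a1 and 1.20 for Col3a1 to Col1a1, since annotated lengths differ.

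The chains that follow turned sign in some settings. In the ZEB1 contrast Col4a4 was -0.012 by limma-voom, -0.050 by library totals, -0.041 at 1 CPM and -0.037 with the replicate block, where Col24a1 was -0.018 and Col11a2 0.044. Leaving out one library at a time gave -0.13 to 0.092 for Col4a4, -0.12 to 0.64 for Col24a1, -0.38 to 0.29 for Col11a2, -0.84 to 0.072 for Col6a3, -0.59 to 0.082 for Col5a3, -0.64 to 0.26 for Col8a1, -0.45 to 0.027 for Col4a6, -0.13 to 0.16 for Col27a1, -0.68 to 0.40 for Col28a1, -0.014 to 0.64 for Col13a1, -0.43 to 0.00748 for Col23a1, -0.32 to 0.034 for Col4a2 and -0.95 to 0.073 for Col6a5. In the ZEB2 contrast library totals gave -0.057 for Col4a4 and -0.087 for Col4a3, and leaving out one library gave -0.023 to 0.25 for Col4a4, -0.062 to 0.12 for Col4a3 and -0.37 to 0.49 for Col19a1.

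Deviations from the group means correlated between same-numbered control and knockout libraries at 0.46 and 0.17 in the ZEB1 line. In the ZEB2 line the correlations were 0.20, -0.03 and -0.31. Deviations within groups of 2 or 3 libraries depend on one another, so these values cannot settle whether the numbers pair libraries. With the replicate block 0 chains were called in each contrast and the ZEB2 fibrillar median was -1.30. The 2 chains left out by the filter had at most 0.0967 CPM, where depth limits what can be measured.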
